A study of Mus musculus with 10 samples.

Results

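Markers of inhibitory interneurons and of GABA synthesis were followed in the hippocampus of female P301S mice: Gad1, Gad2, Slc32a1, Pvalb, Sst, Vip, Npy, Cck, Calb2 and Lhx6. These 10 genes were taken by symbol from 56884 genes in the count table, and all 10 were among the 17622 genes with enough counts to be tested. RNA came from 10 mice of the PS19 line, also called P301S, a tauopathy model in which the mouse Prnp promoter drives mutant human Tau. The females kept their ovaries and received a subcutaneous SILASTIC implant at 6 months of age, either filled with 10 mm of dihydrotestosterone (DHT, an androgen that aromatase cannot turn into estrogen) or left empty (void), for 12 weeks. Each group held 5 mice with 1 library each, collected at 9 to 9.5 months of age. All 10 mice carried the human Tau transgene, so the comparison is of DHT with void within tauopathy, with no mice free of the transgene.

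GABA is the main inhibitory transmitter of the forebrain. It is made from glutamate by the glutamate decarboxylases that Gad1 and Gad2 encode, and it is loaded into vesicles by the transporter that Slc32a1 encodes. Hippocampal interneurons are few beside the pyramidal and granule cells, and they fall into classes that differ in the calcium-binding proteins and neuropeptides they carry. Basket cells that fire fast contain parvalbumin (Pvalb), dendrite-targeting cells contain somatostatin (Sst) and often neuropeptide Y (Npy), and other classes contain vasoactive intestinal peptide (Vip), cholecystokinin (Cck) or calretinin (Calb2). Lhx6 is a transcription factor of interneurons born in the medial ganglionic eminence, which include the Pvalb and Sst classes. Cck is also made by pyramidal cells and Calb2 by mossy cells, so neither is confined to interneurons.

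Because the peptide genes are classic targets of activity-driven transcription through the cAMP response element, their promoters are shown first. RefSeq windows (GRCm38.p6) were found for 9 of the 10 genes and not for Calb2. A gene counted as matching if any of its windows matched, while the shares of all windows are per window. The full element, TGACGTCA, was present in 1.55% of all 32851 promoter windows over the 250 bases before the start, and among these genes in that of Sst. Its core, TGACG on either strand, which also lies within the full element, was present in 17.8% of all windows and in those of Gad2, Sst, Vip and Cck. The 100 bases directly before the start are printed 5′ to 3′ on the strand of each gene, with the core letters in capitals. The windows are chr16:23890845-23890944 (minus strand) for Sst, chr10:5639118-5639217 (plus strand) for Vip, chr9:121495695-121495794 (minus strand) for Cck and chr2:22622227-22622326 (plus strand) for Gad2.
Sst: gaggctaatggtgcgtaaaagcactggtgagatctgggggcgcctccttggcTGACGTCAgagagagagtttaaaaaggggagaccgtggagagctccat
Vip: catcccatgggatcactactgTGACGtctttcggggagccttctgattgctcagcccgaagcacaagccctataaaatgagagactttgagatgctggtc
Cck: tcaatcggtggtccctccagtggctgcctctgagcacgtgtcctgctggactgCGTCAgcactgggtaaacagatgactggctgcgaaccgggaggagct
Gad2: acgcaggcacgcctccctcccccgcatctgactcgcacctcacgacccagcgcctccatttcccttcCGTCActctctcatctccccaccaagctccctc
The letters of a full androgen response element, an inverted repeat of AGAACA with 3 unspecified bases between, were in 0 of the 9 genes' windows and in 0.00913% of all windows. A direct repeat of AGGTCA with 1 unspecified base between, of the kind that nuclear receptors such as TR4 bind, searched on both strands, was in 0 of the 9 and in 0.0335% of all. A missing match says only that these letters are not in this window.

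Total counts per mouse ranged from 27188854 to 47113661 with void and from 33523527 to 45947784 with DHT. Levels are given as normalized CPM, counts brought to a common library size with TMM scaling, and errors in the form mean ± SD are over 5 mice a group unless stated. Each of the 10 genes had at least 428 counts in every mouse (the lowest was Vip), so counting error was small beside the spread between mice. The label of hippocampus was checked against region markers. Prox1 of dentate granule cells was at 166 ± 34.4 CPM with void, Wfs1 of CA1 at 149 ± 14.1, and Grik4, enriched in CA3, at 64.7 ± 11.5. Genes of neighbouring regions were also detected: 6 striatal genes summed to 64.4 to 87.3 CPM in void mice and 84.5 to 111 CPM in DHT mice, and 5 thalamic and habenular genes to 67.6 to 89.6 CPM and 71.2 to 106 CPM. Most of the striatal sum was Ppp1r1b, at 41.7 ± 10.5 and 70.6 ± 10.2 CPM, which hippocampal cells also express, while Drd1 was at 6.72 ± 1.74 and 5.33 ± 0.190 CPM and Drd2 at 2.81 ± 0.614 and 3.99 ± 2.72 CPM. Prkcd, at 33.8 ± 9.13 and 45.6 ± 16.5 CPM, and Lhx9, at 27.3 ± 3.38 and 26.2 ± 4.01 CPM, made up most of the thalamic and habenular sum. How much tissue of these regions the samples held was not tested.

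None of the 10 genes passed the test for a change with DHT. In edgeR's quasi-likelihood test over all genes, 0 of the 10 passed a Benjamini-Hochberg adjusted p of 0.05, and DESeq2 also called 0. Of all genes tested, 5.48% were called (5.22% higher and 0.261% lower). At an unadjusted p below 0.05, the count was 0 of the 10 genes against 17.4% of all genes. The log2 fold changes ran from -0.20 for Vip to 0.11 for Slc32a1, with a median of -0.09, and 7 of the 10 were negative, beside 47.6% of all genes and a median of 0.0094 over all genes. In 0 of the 10 genes were the void and DHT mice fully apart, which 6.27% of all tested genes were. The 95% intervals of all 10 log2 fold changes lay between -0.53 and 0.62, so a doubling or a halving lay outside each of them. Since this was bulk tissue, fewer cells of a class and less RNA per cell cannot be told apart.

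**Figure D1:**
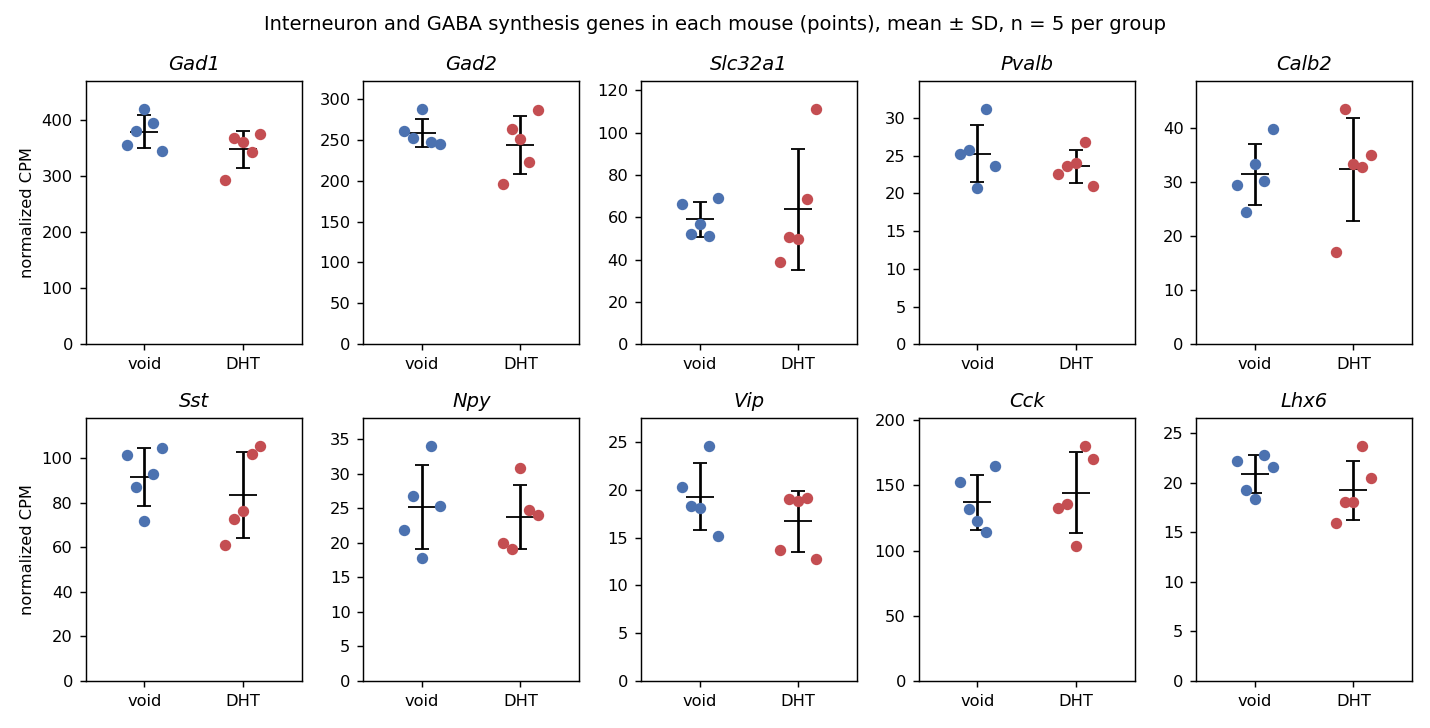
Normalized CPM (vertical axes, from 0) of the 10 genes in void (blue) and DHT (red) mice; each point is 1 mouse, and the bars give the mean and SD of 5 mice. The groups overlap in all 10 panels, with DHT mouse 6 standing high for Slc32a1 and DHT mouse 1 low for Calb2.

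Gad1 (ENSMUSG00000070880), the more abundant of the decarboxylase genes by CPM, was at 356, 381, 419.5, 396 and 346 CPM in void mice 10, 11, 4, 5 and 9. In DHT mice 1, 2, 3, 5 and 6 it was at 294, 369, 361, 343 and 375 CPM. Mouse 1 was the lowest of all 10, and the other DHT mice lay within or just under the void range. The log2 fold change of Gad1 was -0.12 (95% interval -0.29 to 0.04, adjusted p = 0.472), and a two-sided exact permutation test over mice gave p = 0.167, where the smallest p for 5 against 5 is 0.00794. Gad2 (ENSMUSG00000026787), which encodes the decarboxylase of nerve terminals, was at 261, 252, 287.5, 247 and 245 CPM in void mice 10, 11, 4, 5 and 9. In DHT mice 1, 2, 3, 5 and 6 it was at 196, 264, 251, 223 and 287 CPM. The groups overlapped, with mouse 1 again lowest, and the SD was 35.6 CPM with DHT against 17.3 with void. Its log2 fold change was -0.08 (95% interval -0.29 to 0.12, adjusted p = 0.740; two-sided exact permutation p = 0.437).

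Slc32a1 (ENSMUSG00000037771), the vesicular GABA transporter gene, had the widest spread of the 10. It was at 66.3, 52.1, 57.0, 51.0 and 69.2 CPM in void mice 10, 11, 4, 5 and 9, and at 38.6, 50.5, 49.5, 68.7 and 111 CPM in DHT mice 1, 2, 3, 5 and 6. DHT mouse 6 was above every void mouse, while mice 1, 2 and 3 were below every void mouse. The coefficient of variation was 44.9% with DHT and 14.0% with void; the difference in spread was not tested. The log2 fold change was 0.11 (95% interval -0.41 to 0.62, adjusted p = 0.891) and became -0.19 without DHT replicate 6, with an adjusted p at or above 0.60 in each fit that left out a mouse. Thus the sign of this gene rested on 1 mouse.

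Among the neuropeptide genes, Sst (ENSMUSG00000004366) was at 101, 87.3, 71.8, 92.9 and 104.5 CPM in void mice 10, 11, 4, 5 and 9. In DHT mice 1, 2, 3, 5 and 6 it was at 61.1, 72.8, 76.2, 102 and 106 CPM. The DHT mice fell into a low set of 3 and a high pair that matched the highest void mice. The log2 fold change was -0.13 (95% interval -0.46 to 0.20, adjusted p = 0.738; two-sided exact permutation p = 0.437). Vip (ENSMUSG00000019772) was at 20.3, 18.4, 18.1, 24.6 and 15.1 CPM in void mice 10, 11, 4, 5 and 9, and at 13.7, 19.1, 18.9, 19.2 and 12.7 CPM in DHT mice 1, 2, 3, 5 and 6. Mice 1 and 6 were below all void mice and the other 3 lay inside the void range. The log2 fold change of Vip was -0.20 (95% interval -0.53 to 0.12, adjusted p = 0.563; two-sided exact permutation p = 0.222), the most negative of the 10. It was -0.10 without void replicate 5 and -0.12 without DHT replicate 6, and in both of these fits Sst was lower, at -0.13 and -0.23.

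Npy (ENSMUSG00000029819) ranged from 17.8 to 34.0 CPM with void and from 19.1 to 30.8 with DHT, so all 5 DHT mice lay within the void range. Its log2 fold change was -0.08 (95% interval -0.45 to 0.29, adjusted p = 0.883). Cck (ENSMUSG00000032532) ranged from 114 to 165 CPM with void and from 103 to 180.3 with DHT, and 2 DHT mice exceeded the highest void mouse. Its log2 fold change was 0.07 (95% interval -0.25 to 0.39, adjusted p = 0.877).

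Of the calcium-binding protein genes, Pvalb (ENSMUSG00000005716) was the steadier. It was at 25.3 ± 3.83 CPM in void mice and 23.6 ± 2.17 CPM in DHT mice, and all 5 DHT mice lay within the void range of 20.7 to 31.2. Its log2 fold change was -0.10 (95% interval -0.33 to 0.13, adjusted p = 0.722). Calb2 (ENSMUSG00000003657) was at 29.5, 24.4, 33.3, 30.1 and 39.8 CPM in void mice 10, 11, 4, 5 and 9, and at 17.1, 43.5, 33.3, 32.9 and 35.0 CPM in DHT mice 1, 2, 3, 5 and 6. DHT mice held both the lowest and the highest value, and the other 3 lay within the void range. The log2 fold change of Calb2 was 0.04 (95% interval -0.40 to 0.48, adjusted p = 0.957). Lhx6 (ENSMUSG00000026890) was at 20.9 ± 1.91 CPM in void mice and 19.2 ± 2.97 CPM in DHT mice, a log2 change of -0.12 (95% interval -0.35 to 0.12, adjusted p = 0.664). Its DHT mice 1, 2 and 3, the same mice that were low for Sst, were below all void mice, at 15.96, 18.04 and 18.03 CPM against a void minimum of 18.39.

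**Figure D2:**
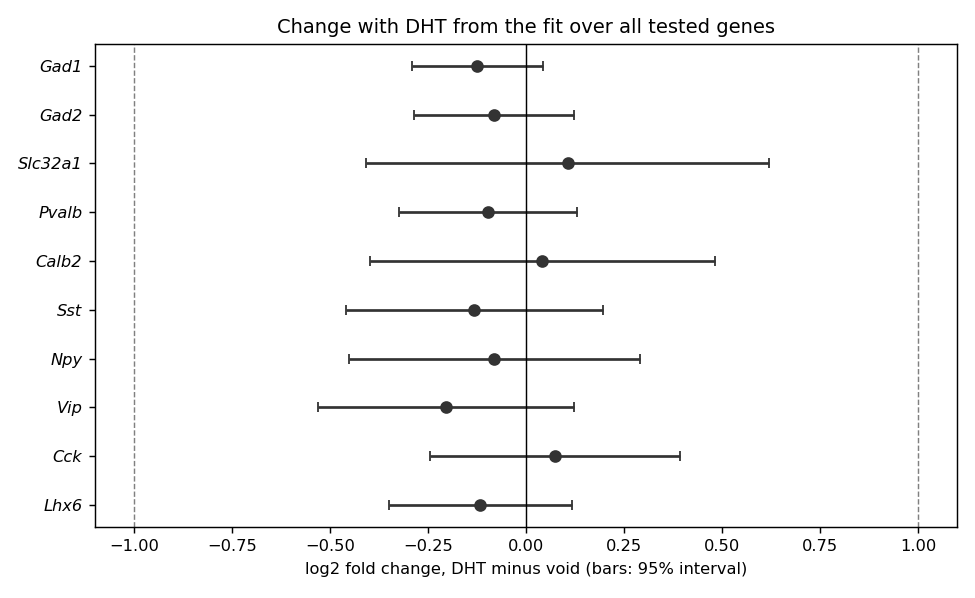
Log2 fold change of DHT over void (horizontal axis) for each of the 10 genes, as points with 95% intervals from edgeR's quasi-likelihood fit; dashed lines mark a doubling and a halving. All 10 intervals span 0 and none reaches a dashed line; Slc32a1 and Calb2 have the widest.

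To compare genes with each other, CPM was divided by exon length in kilobases (GENCODE M21), a level per length. Over the 10 mice, Sst was highest at 121 ± 22.4 CPM per kilobase (SD, n = 10), followed by Cck at 108 ± 19.4, and the ranges of these neighbours overlapped. Gad1 came next at 47.6 ± 4.43, then Npy at 43.2 ± 9.09 and Gad2 at 42.8 ± 4.66, again with overlapping ranges, although Gad1 exceeded Npy in 8 of 10 mice. Pvalb stood at 23.5 ± 2.94, Slc32a1 at 21.9 ± 7.14 and Calb2 at 18.3 ± 4.25, with overlap from each to the next. Vip, at 5.29 ± 1.01, and Lhx6, at 4.17 ± 0.521, were lowest. The steps from Cck to Gad1, from Gad2 to Pvalb and from Calb2 to Vip separated the neighbours in all 10 mice with no overlap of ranges, by ratios of 2.26, 1.82 and 3.46.

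Set against Gad1 in the same mouse, which cancels the scaling of a library, the group means of the other 9 genes differed by less than the SD of either group. The mean log2 ratio of Sst to Gad1 was -2.06 ± 0.322 with void and -2.09 ± 0.275 with DHT. For Pvalb it was -3.92 ± 0.254 and -3.88 ± 0.201, and for Vip -4.31 ± 0.233 and -4.40 ± 0.285. The largest shift was 0.19, for Cck, from -1.48 ± 0.326 with void to -1.29 ± 0.341 with DHT. These ratios are given as a description.

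Values also differed between single mice. DHT mouse 1 was below the gene's own mean over 10 mice for all 10 genes, with a median deviation of -0.34 on the log2 scale, and it was the lowest mouse for 6 genes. DHT mouse 5 was above the mean for 8 of the 10 genes, and void mouse 10 and DHT mouse 6 for 7 each. The summed level of the 10 genes was 811 CPM in DHT mouse 1, against 967 to 1162 in the other DHT mice and 1019 to 1067 with void. The same mouse had the highest summed level of 12 choroid plexus genes (5637 CPM), of 9 microglial genes (1040 CPM) and of 6 astrocyte genes (7857 CPM), and the lowest of 10 pan-neuronal genes (6408 CPM). Its sum of 8 excitatory neuron genes, 5482 CPM, was within the void range of 4926 to 5800. The part of these cell types in the low values of mouse 1 was not tested. Without DHT replicate 1, 0 of the 10 genes were called, and the lowest adjusted p among them was 0.579.

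**Figure D3:**
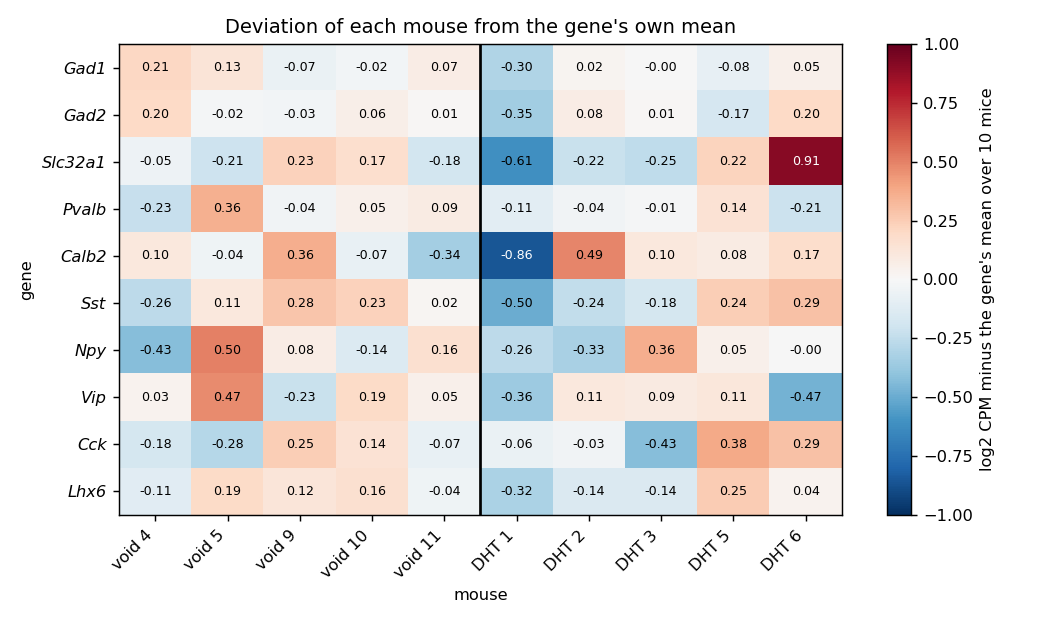
Log2 CPM of each gene (rows) in each mouse (columns) minus that gene's mean over 10 mice; blue is below and red above the mean, and the black line parts void from DHT. The column of DHT mouse 1 is blue throughout, and Slc32a1 in DHT mouse 6 is the deepest red at 0.91.

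The 10 genes were also compared with each other across mice. Among 45 pairs and 10 relations with total counts, which were adjusted together, 1 pair passed an adjusted p of 0.05. Sst and Lhx6 had a Pearson r of 0.90 (permutation p = 0.00061, adjusted p = 0.0335) and a Spearman rho of 0.745 (permutation p = 0.0174, adjusted p = 0.185) over the 10 mice, and r was 0.82 without void mouse 4 and DHT mouse 1. Gad1 and Gad2 had an r of 0.85 (permutation p = 0.00333, adjusted p = 0.0682) and a rho of 0.721 (permutation p = 0.0227, adjusted p = 0.185), and r was 0.43 without the same pair of mice. Slc32a1 and Sst had an r of 0.79 (permutation p = 0.00372, adjusted p = 0.0682) and a rho of 0.855 (permutation p = 0.00274, adjusted p = 0.151), with r at 0.75 without DHT mice 1 and 6. Pvalb and Vip had an r of 0.76 (permutation p = 0.010, adjusted p = 0.138) and a rho of 0.77 (permutation p = 0.0125, adjusted p = 0.185), with r at 0.83 without void mice 4 and 5. Against total counts, Sst and Lhx6 each had an r of -0.66 (permutation p = 0.0391 and 0.0397, adjusted p = 0.273 for both), which did not pass. Their rho with total counts was -0.636 and -0.794 (permutation p = 0.0541 and 0.00894, adjusted p = 0.270 and 0.185), and r was -0.60 and -0.66 without void mouse 4 and DHT mouse 3. The part of depth in the Sst and Lhx6 relation was not tested, and with 5 mice a group no r was computed within the groups.

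By likeness of pattern over the 10 mice, after each group's mean was subtracted, the genes nearest to Sst were Mcoln1 and Inafm1, nearest to Cck were Tab1 and Bcl7b, and nearest to Slc32a1 was Ptpn5, each with a Pearson r between 0.978 and 0.993 among 14835 genes searched. Gad1 was most like 1700001L19Rik (r = 0.972) and Gad2 most like Myt1 (r = 0.955). Pvalb was most like Hivep1 (r = 0.982), Npy most like Gm20712 (r = 0.969), Calb2 most like Lipg (r = 0.974) and Lhx6 most like Mcat (r = 0.978). Vip was most like Mcf2 (r = 0.947) and next Syt2 (r = 0.940), the latter a presynaptic calcium sensor of fast-spiking terminals. With so many genes searched over 10 mice, high values are found readily, and they are given as a description.

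Other genes of the same cells and pathway were read from the same fit. Of 34 further interneuron markers, 33 were tested (Chodl had too few counts): 2 rose, 0 fell and 31 did not pass, a share near the 5.48% called among all genes. At an unadjusted p below 0.05 there were 8, with 2 higher and 6 lower, beside 17.4% of all genes in either direction, and the median log2 change was -0.10. Among those that rose was Maf, at a log2 change of 0.24 (standard error, SE, 0.053, adjusted p = 0.0238). It encodes a transcription factor of medial ganglionic eminence interneurons that microglia and macrophages also express. Maf was at 36.4 to 39.8 CPM in void mice and 43.0 to 47.6 CPM in DHT mice, with no overlap. Of 9 microglial markers, 7 rose, and their summed level was 456 to 549.8 CPM in void mice and 671 to 1040 CPM in DHT mice. Its part in the change of Maf was not tested. Maf no longer passed in 6 of the 10 fits that each left out a mouse, while its log2 change ranged from 0.18 to 0.26 over the 10.

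The lowest change among these markers was that of Syt2, at 46.6 to 74.0 CPM in void mice and 35.7 to 48.4 CPM in DHT mice, a log2 change of -0.41 (SE 0.13, adjusted p = 0.0908). Dlx6os1, a long noncoding RNA of the Dlx locus that marks developing and adult interneurons, had -0.30 (SE 0.15, adjusted p = 0.341). Cnr1, the cannabinoid receptor of Cck basket cells and the most abundant of the list at 342 ± 17.7 CPM in void mice and 314 ± 17.6 CPM in DHT mice, had -0.12 (adjusted p = 0.286). Reln, which encodes reelin and was named after its values were seen, was the other gene with groups fully apart. It was at 121 ± 11.6 and 102 ± 11.5 CPM, a log2 change of -0.24 (adjusted p = 0.175). Such separation was found in 2 of the 33 tested markers, beside 6.27% of all tested genes. DESeq2 called Syt2 and Kcnc2 lower (adjusted p = 0.0209 and 0.0147), among 266 lower and 1186 higher of 17616 genes it tested. Kcnc2, also named after its values were seen, encodes a potassium channel of fast-spiking cells.

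The summed level of the 34 markers was 1861 to 1943 CPM in void mice and 1538 to 1822 CPM in DHT mice, with no overlap. Abundant genes weigh most in such a sum, the largest being Cnr1 at 342 of a mean of 1904 CPM in void mice. The pan-neuronal list summed to 7380 to 8151 CPM in void mice and 6408 to 7255 CPM in DHT mice, also with no overlap. The log2 changes of all 10 genes of this list were below 0, with a median of -0.10. Of them, 0 were called by edgeR (1 at an unadjusted p below 0.05). The most abundant gene of the list, Map2, was at 2006 ± 126 CPM in void mice and 1772 ± 139 CPM in DHT mice. The part of neuron content in the interneuron values was not tested by these sums. Scaling on the pan-neuronal genes shifted all genes upward, with the median log2 change of all tested genes going from 0.0094 to 0.14 and that of the 10 interneuron and GABA synthesis genes from -0.09 to 0.04. The shift is common to all genes by construction.

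**Figure D4:**
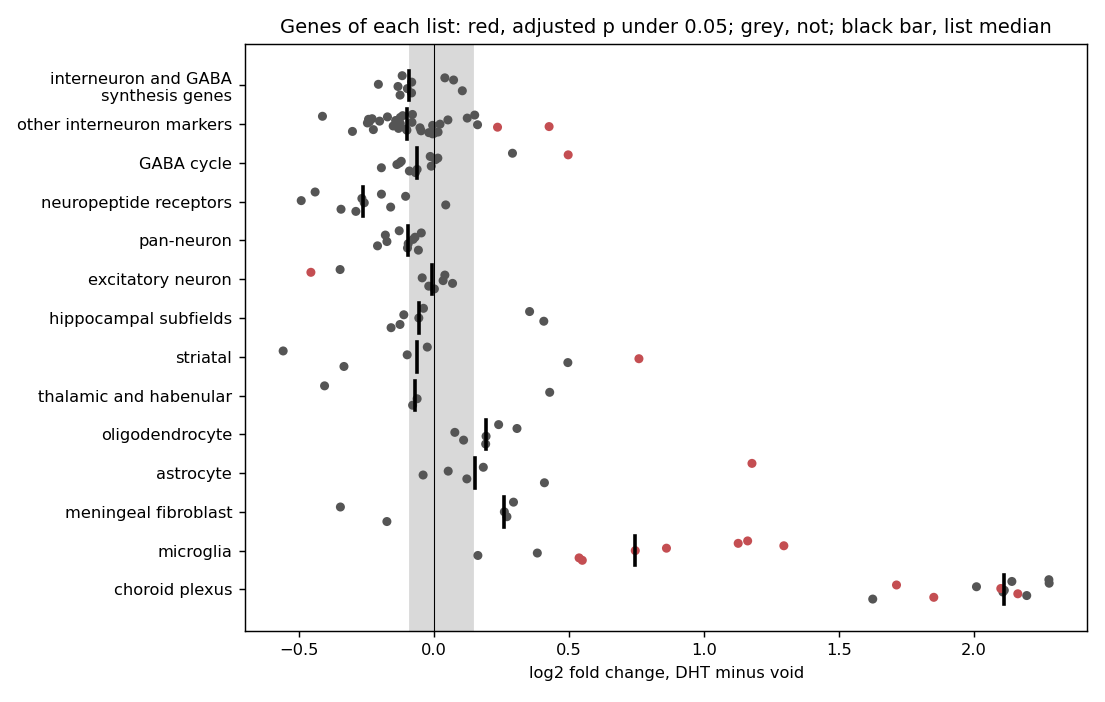
Log2 fold change with DHT (horizontal axis) of each tested gene of 14 lists (rows), red where the adjusted p was under 0.05, with a black bar at the list's median; the grey band is the interquartile range of all tested genes, -0.09 to 0.14. The interneuron and GABA synthesis genes cluster near 0, while choroid plexus and microglial genes lie far to the right.

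Of 13 genes that recycle, supply and break down GABA, all tested, 1 rose, 0 fell and 12 did not pass, a share near the 5.48% called among all genes. At an unadjusted p below 0.05 there were 3, with 1 higher and 2 lower, beside 17.4% of all genes, and the median log2 change was -0.06. Slc38a3, a glutamine transporter of astrocytes, was the gene that rose, at 54.4 to 80.6 CPM in void mice and 70.2 to 105 CPM in DHT mice, a log2 change of 0.50 (SE 0.13, adjusted p = 0.0497). It no longer passed in 8 of the 10 fits that each left out a mouse, where its adjusted p reached 0.158. Over the 10 fits its log2 change ranged from 0.42 to 0.61. Glul, glutamine synthetase of astrocytes and the most abundant of the list, ranged over 1102 to 1326 CPM in void mice and 1133 to 1312 CPM in DHT mice. Aldh5a1, the dehydrogenase that ends GABA breakdown, was at 160 ± 7.31 and 146 ± 6.08 CPM, a log2 change of -0.14 (SE 0.051, adjusted p = 0.177), and DESeq2 called it lower (adjusted p = 0.0416). Slc6a13, a GABA transporter of the meninges, had -0.19 (SE 0.48, adjusted p = 0.902), and Slc38a5, another glutamine transporter, 0.29 (SE 0.24, adjusted p = 0.612). The level of Slc38a5 was low, at 1.9 ± 0.52 CPM in void mice and 2.3 ± 0.61 CPM in DHT mice.

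Of 12 genes for receptors of the 4 peptides, 10 were tested (Sstr5 and Cckar had too few counts) and edgeR called 0. Of those tested, 9 had a log2 change below 0, beside 47.6% of all genes, and 4 had an unadjusted p below 0.05, all of them lower, beside 17.4% of all genes in either direction. The median was -0.26. Vipr2 and Cckbr, receptors for VIP and cholecystokinin, had the lowest values at -0.49 (SE 0.33, adjusted p = 0.509) and -0.44 (SE 0.26, adjusted p = 0.448). Single mice moved both, to -0.094 for Vipr2 without void replicate 4 and to -0.11 for Cckbr without void replicate 5. The level of Vipr2 was low, at 1.24 ± 0.665 CPM in void mice and 0.901 ± 0.263 CPM in DHT mice. Npy2r, the presynaptic neuropeptide Y receptor and the most abundant, was at 61.4 ± 11.7 CPM in void mice and 57.2 ± 5.32 CPM in DHT mice, a log2 change of -0.10 (adjusted p = 0.759). Sstr4, a somatostatin receptor, had the highest value at 0.04 (adjusted p = 0.946). Npy1r, named after its values were seen, was at 36.1 to 44.8 CPM in void mice and 30.6 to 36.0 CPM in DHT mice. The groups were narrowly without overlap, the 1 case among the 10 tested receptors, beside 6.27% of all tested genes. The log2 change of Npy1r was -0.27 (SE 0.073, adjusted p = 0.0551). DESeq2 called 2 of these receptors lower, Npy1r (adjusted p = 0.00687) and Vipr1 (adjusted p = 0.0371), beside 266 lower among all 17616 genes it tested.

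Markers of other cells and regions stood beside these values as follows. Of 12 choroid plexus genes, 4 rose and the log2 changes of all 12 were above 0, with a median of 2.11, and the summed level was 358 to 3240 CPM in void mice (mouse 9 was the highest) and 3866 to 5637 CPM in DHT mice. Enpp2 was the most abundant at 628 ± 472 and 2059 ± 398 CPM. Of 6 astrocyte genes, 1 rose (Gfap, log2 fold change 1.18, adjusted p = 0.00761), and Slc1a2 was the most abundant at 4407 ± 696 and 4288 ± 362 CPM.

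Of 6 oligodendrocyte genes 0 were called by edgeR, with 2 at an unadjusted p below 0.05 and a median of 0.19, and Mbp was the most abundant at 1215 ± 151 and 1388 ± 150 CPM. Of 8 excitatory neuron genes, 1 fell, the median was -0.0080, and Camk2a was the most abundant at 3143 ± 227 and 3103 ± 464 CPM. Region markers bear on interneurons because striatum, thalamus and cortex hold other mixes of GABA neurons. Of 6 striatal genes, 1 rose (Ppp1r1b, log2 fold change 0.76, adjusted p = 0.0156), and Drd1 had -0.33 (adjusted p = 0.310). Of 5 thalamic and habenular genes, 4 were tested and 0 were called by edgeR (0 at an unadjusted p below 0.05). Of 5 meningeal fibroblast genes and of 7 hippocampal subfield genes, 0 were called and 0 had an unadjusted p below 0.05. Dcn, at 52.1 to 76.1 CPM in void mice and 21.8 to 76.1 CPM in DHT mice, and Prox1, at 166 ± 34.4 and 148 ± 16.3 CPM, led these lists. The part of tissue content in the values of the 10 interneuron and GABA synthesis genes was not tested.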

How the data were processed

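RNA-seq libraries (KAPA mRNA HyperPrep) were made from the hippocampus of each mouse. Reads were cleaned by the authors in HTStream, and STAR 2.7.10b did the alignment. The authors deposited raw counts per gene with no normalization. The study's methods name mm10 and the submitters' processing notes mm39, the annotation release and strand setting are not given in the sources used here, and so no coordinates are given for the counted genes. The promoter windows carry RefSeq coordinates on GRCm38.p6. Without the strand setting, reads of overlapping antisense genes could not be told apart. Symbols were found for 51948 of 56884 gene identifiers in GENCODE M21, which also gave the exon lengths. As the deposited identifiers come from another release, these lengths are approximate. No column of other samples was present.

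The deposited counts were fitted by edgeR 4.0.16 (R 4.3.3), with TMM scaling, the expression filter by group, quasi-likelihood tests and p-values adjusted by Benjamini-Hochberg over 17622 genes, called at an adjusted p under 0.05 with no fold limit. Intervals of 95% used the fit's standard error and total degrees of freedom. DESeq2 1.42.0 was an alternative. Correlations used log2 CPM with a prior count of 2 and 100000 permutations. The fits were tested on simulated counts. All void libraries have lower library numbers than all DHT libraries, and order cannot be told apart from treatment. The 10 genes, the 14 lists and the tests were chosen with earlier results of these data known. Beyond the 10 genes, those named are the called genes, the 2 highest and 2 lowest changes and the most abundant gene of the GABA cycle, interneuron and receptor lists, the most abundant gene of each other list, and the genes most alike in pattern. Others, such as further region and glial markers, were chosen after their values were seen. Some genes that this rule names are not reported here.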

Additional observations from a re-analysis of the deposited data

Results flagged for a closer look

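In groups of 5 mice, a mouse was looked at again when its gap to the nearest of the others exceeded 0.71 of the group's range. Among 48 groups examined (24 genes in 2 treatments), 6 met this. For unselected groups of normal values the rate would be about 1 in 20. Some of these genes were named for the highest or lowest changes of their lists, so that rate is no test of them. None of the 10 interneuron and GABA synthesis genes met the rule, and their largest ratio was 0.639, for Gad2 in void mouse 4. The ratios were 0.743 for Slc38a3 (void mouse 9, highest), 0.725 for Slc6a13 (DHT mouse 3, highest), 0.844 for Vipr2 (DHT mouse 1, highest) and 0.813 for Cckbr (void mouse 5, highest). For Npy2r they were 0.742 (void mouse 5, lowest) and 0.737 (DHT mouse 2, highest).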

How the results depend on the processing

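No paired analysis was made, because void and DHT libraries came from different mice and the sample labels name no pairs. Under 6 of the 7 other settings and all 10 fits that left out a mouse, 0 of the 10 interneuron and GABA synthesis genes were called, and the lowest adjusted p was 0.214, for Lhx6 without DHT replicate 5. The sign of several of their small log2 changes did turn. Scaling on pan-neuronal genes, which by construction shifts every gene and put the median of all genes at 0.144 in place of 0.0094, gave Gad1 0.0072, Gad2 0.046, Lhx6 0.015, Npy 0.063 and Pvalb 0.044, as well as Aldh5a1 0.00049, Cnr1 0.0092 and Npy2r 0.021. A choroid plexus covariate, under which no gene of all those tested was called, so that the count for these 10 carries no information, gave Calb2 -0.22, Cck -0.099, Npy 0.27, Pvalb 0.17, Slc32a1 -0.057 and Vip 0.16 (the cause was not tested), as well as Cckbr 0.25, Slc6a13 2.10 and Sstr4 -0.40. Glul was at -0.020 with DESeq2, -0.020 with its size factors in edgeR and -0.0052 with no filter on low counts.

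Of all genes, 920 were higher and 46 lower. DESeq2 gave 266 lower, scaling on pan-neuronal genes 1896 higher and 8 lower, the choroid plexus covariate 0 and 0, and a fold limit of 1 on the log2 scale 382 and 4. For the GABA cycle list, 1 higher became 0 with DESeq2 size factors in edgeR, with the covariate and with the fold limit, and DESeq2 called 1 lower. For the further interneuron markers, 2 higher became 1 with those size factors and 1 with no filter, and 0 with the covariate or the fold limit, and DESeq2 called 2 lower. For the receptors, 0 lower became 2 with DESeq2 and 1 with those size factors.

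Leaving out each mouse in turn gave 351 (without void replicate 11) to 1072 (without void replicate 9) genes higher and 5 (without void replicate 11) to 77 (without DHT replicate 2) lower. The ranges were 0 to 1 higher for the GABA cycle, 0 to 2 higher and 0 to 1 lower for the further interneuron markers, and 0 to 1 lower for the receptors. Log2 changes ranged from -0.089 to 0.17 for Calb2, -0.054 to 0.15 for Cck, -0.22 to 0.052 for Npy, -0.19 (without DHT replicate 6) to 0.21 (without DHT replicate 1) for Slc32a1, -0.29 to -0.10 for Vip, -0.25 to -0.072 for Sst, -0.18 to -0.011 for Pvalb, -0.73 to -0.094 for Vipr2, -0.64 to -0.11 for Cckbr, -0.24 (without DHT replicate 5) to -0.083 for Lhx6, -0.15 (without DHT replicate 6) to -0.041 (without void replicate 4) for Gad2, -0.22 (without void replicate 5) to -0.062 (without void replicate 9) for Npy2r, -0.41 to -0.18 (without void replicate 4) for Dlx6os1, 0.15 (without void replicate 4) to 0.43 for Slc38a5, -0.061 to 0.046 for Glul, -0.48 to 0.16 for Slc6a13 and -0.093 to 0.13 for Sstr4. With 5 mice a group, shifts smaller than the printed intervals were not detectable.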
